A study of Mus musculus with 12 samples.

Results

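The genes described here encode 9 components, receptors and regulators of the complement system: C1qa, C1qb, C1ra, C2, C3, C4b, Cfb, C3ar1 and Serping1. They were chosen by name, with earlier results of these data known, so their counts beside all probe sets are descriptions only. Each probe set that the platform annotation assigns to one of them was taken, including probe sets whose annotation lists several genes. This gave 12 of the 22626 non-control probe sets, for 8 of the 9 genes. The probe set of C4b is shared with C4a, and 1 of the 2 probe sets of C1ra is shared with C1rb. C3 has no entry in the annotation used here and was not analysed here. No filter on low values was applied, so all 12 probe sets were kept.

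Complement is a cascade of plasma and tissue proteins that tags cells and debris for uptake and can open pores in membranes. In the classical pathway C1q binds its target and activates the proteases C1r and C1s, which cleave C4 and C2 to form an enzyme that cleaves C3. In the alternative pathway factor B supplies the protease of another such enzyme. In the brain C1q is known as a product of microglia, and C1q and C4 have both been linked to the removal of synapses.

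Whole brains of adult mice that had received no treatment and were housed specific-pathogen-free were lysed, and total RNA was hybridised to Affymetrix arrays, 12 in all. There were 3 arrays each of mice lacking both Usp18 and Ifnar1 (USP18ko:IFNARko, here the double knockout), mice lacking Usp18 (USP18ko), mice lacking Ifnar1 (IFNARko) and wild-type mice (WT). Usp18 encodes a protease that strips ISG15 from proteins and dampens signalling through the type I interferon receptor, a chain of which Ifnar1 encodes. The labels give no strain, sex or batch and name no promoter or cell type that limits a knockout. They also leave unsaid whether replicates came from different animals, so the p-values reflect the spread among these samples only, which could be technical in part. Eif2s3y, given below, differed widely among the WT and among the double knockout arrays, so these do not all repeat 1 RNA sample.

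Values are log2 signals as the authors processed them, from 2.36 to 13.81 over the table, with array medians of 6.98 to 7.07. No detection calls were used, so a low level is not shown to be above background. Ifnar1 signals were 6.56 to 6.68 in the double knockout and 6.24 to 6.59 in IFNARko, against 7.76 to 8.01 in USP18ko and 7.44 to 8.21 in WT. Usp18 read 3.50 to 3.71 in the double knockout, 3.55 to 3.76 in USP18ko and 3.53 to 3.67 in IFNARko, against 4.04 to 4.36 in WT, all near the bottom of the range, so it checks the Usp18 labels poorly. IFNARko replicate 1 stood apart, with a beta-actin 3' minus 5' difference of 1.48 against 0.20 to 0.54 in the other 11 arrays, and correlations with them of 0.963 to 0.974 against 0.983 to 0.998 among the rest. Xist read 10.17 to 11.34 in the 3 double knockout arrays and WT replicate 1, against 4.98 to 5.69 in the other 8 arrays. The Y-linked Eif2s3y read 7.16 to 8.94 in 9 arrays and 3.05 to 3.22 in WT replicate 1 and double knockout replicates 1 and 3. Of the markers of neurons, astrocytes and myelin, the brightest read high in all genotypes, as for brain. The neuron marker Stmn2 averaged 13.29, the astrocyte marker Aldoc 11.90 and the myelin gene Mbp 11.68 over the 12 arrays. Mbp was uneven among the WT arrays, at 11.16, 12.98 and 10.38 in replicates 1, 2 and 3. The mean of 7 myelin markers was 7.29, 9.53 and 6.84 there, against 7.26 to 8.24 in the other genotypes. In some arrays that mean was thus near the array medians.

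Promoter sequences were available for 3 of the 8 measured genes, and they are shown because these members moved together across genotypes. Each window runs from 250 bases before to 50 bases after the start of the gene, 5′ to 3′ (RefSeq, GRCm38.p6). Motifs of interferon signalling were searched on both strands: a pair of TTTC blocks 2 bases apart, like the element bound by interferon regulatory factors, and TTCNNNGAA, like the element bound by STAT dimers. Capitals mark the match, a TTCNNNGAA motif whose first base lies 32 bases after the start of C1ra.
C1qb (chr4:136886151-136886450, minus strand): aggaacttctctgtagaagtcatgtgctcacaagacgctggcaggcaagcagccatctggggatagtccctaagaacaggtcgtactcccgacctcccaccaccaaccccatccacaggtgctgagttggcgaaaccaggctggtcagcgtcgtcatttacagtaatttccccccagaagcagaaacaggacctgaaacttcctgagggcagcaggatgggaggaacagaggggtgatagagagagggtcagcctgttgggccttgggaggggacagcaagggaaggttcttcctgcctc
C1ra (chr6:124512371-124512670, plus strand): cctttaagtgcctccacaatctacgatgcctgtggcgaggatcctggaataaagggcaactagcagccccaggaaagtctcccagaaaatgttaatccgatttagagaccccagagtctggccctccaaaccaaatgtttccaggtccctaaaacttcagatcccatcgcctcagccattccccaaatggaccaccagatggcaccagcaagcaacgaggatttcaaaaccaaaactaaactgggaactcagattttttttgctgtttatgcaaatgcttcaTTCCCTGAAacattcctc
C3ar1 (chr6:122856108-122856407, minus strand): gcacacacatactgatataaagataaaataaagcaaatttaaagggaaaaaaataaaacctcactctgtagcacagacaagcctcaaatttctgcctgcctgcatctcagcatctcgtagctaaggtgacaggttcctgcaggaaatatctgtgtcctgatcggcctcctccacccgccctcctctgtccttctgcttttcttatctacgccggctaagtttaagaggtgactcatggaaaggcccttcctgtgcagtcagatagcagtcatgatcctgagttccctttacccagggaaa
Of 32544 promoters of this length, 3.45% held the paired TTTC blocks and 8.33% held TTCNNNGAA, so a match is a description of these letters only. The paired TTTC blocks are not in these 3 windows.

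USP18ko was compared with WT for the effect of Usp18 loss with the receptor gene intact. For 12 of 12 complement probe sets the lowest USP18ko array lay above the highest WT array, beside 4.1% of all probe sets. At an adjusted p under 0.05 limma called 9 of the 12 higher and 0 lower, beside 0.968% of all probe sets called higher and 0.00884% called lower. By gene, taking the brightest probe set, 7 of 8 were called higher, C1qb being the exception. The median log2 difference of the 12 probe sets was 1.46 (range 0.65 to 2.11), against -0.02 over all probe sets. In whole-brain RNA more cells of a type and more RNA per cell cannot be told apart.

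**Figure D1:**
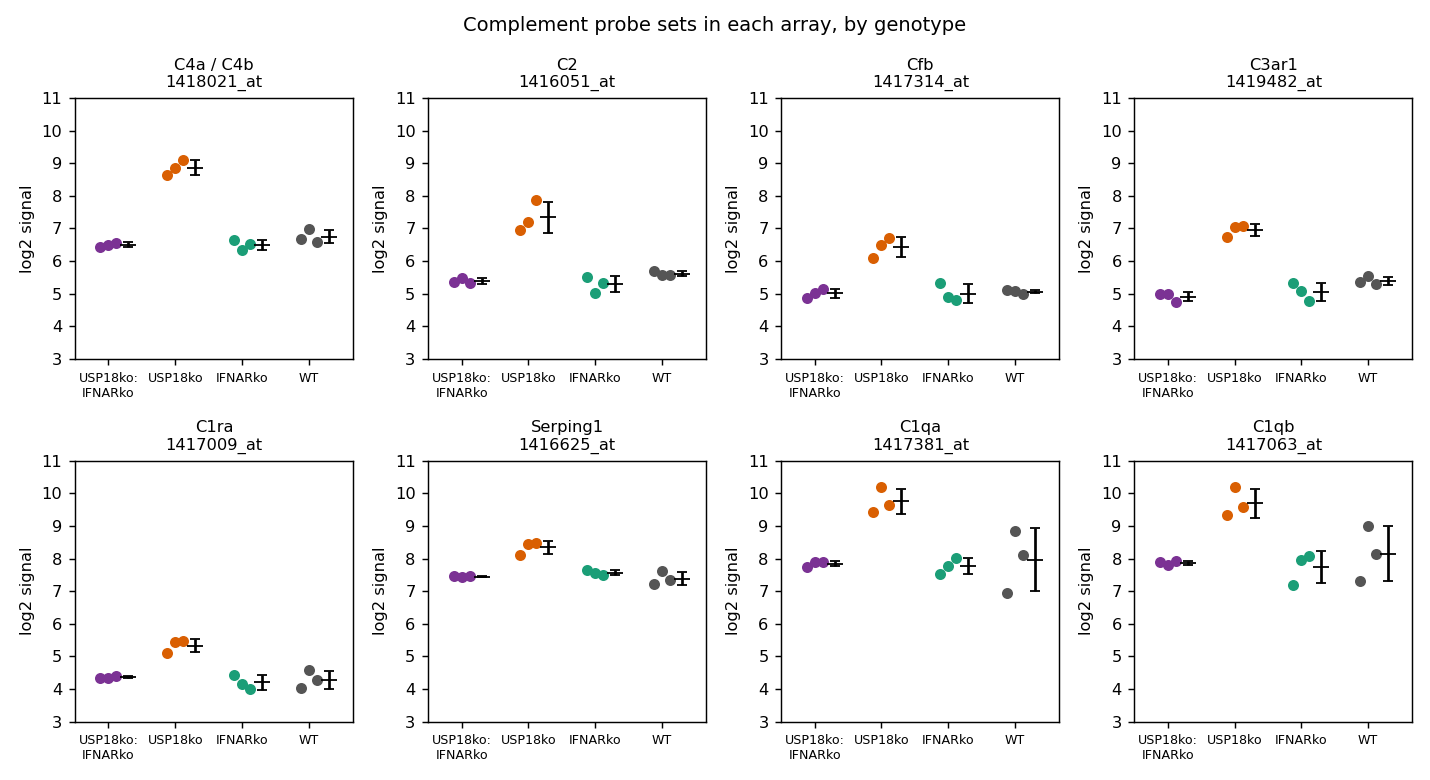
Log2 signal of the brightest probe set of each measured complement gene in every array. Coloured points are arrays, 3 per genotype, and black bars are the mean and SD. The USP18ko points of each gene lie above all others, and the WT points of C1qa and C1qb are the most widely spread.

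The C4 probe set (1418021_at, annotated to C4a and C4b) changed most. C4 is cleaved by C1s, and its larger fragment attaches to the target surface. The signal was 8.64, 8.85 and 9.09 in the USP18ko arrays, against 6.68, 6.97 and 6.58 in the WT arrays. The groups are separated by more than the spread within either of them, with a difference of 2.11 (SE 0.14, adjusted p = 2.80e-06), or 4.33-fold on this scale. C4a and C4b are near-identical in sequence and close to each other on chromosome 17, and their transcripts cannot be told apart here.

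C2, the protease that joins C4 in the classical C3-cleaving enzyme, read 6.94, 7.19 and 7.88 in USP18ko, against 5.71, 5.56 and 5.58 in WT. It rose by 1.72 (SE 0.20, adjusted p = 5.58e-04), with USP18ko replicate 3 the highest. Cfb, the factor B gene of the alternative pathway and the direct neighbour of C2 on chromosome 17, read 6.10, 6.50 and 6.71 in USP18ko, against 5.10, 5.09 and 5.0 in WT. It rose by 1.37 (SE 0.17, adjusted p = 8.15e-04). For both genes the USP18ko arrays were more widely spread than the WT arrays, with SDs of 0.48 and 0.08 for C2 and of 0.31 and 0.06 for Cfb.

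C1ra, which encodes the first protease of the C1 complex, read 5.10, 5.44 and 5.46 in USP18ko, against 4.02, 4.57 and 4.28 in WT. It rose by 1.04 (SE 0.16, adjusted p = 0.00424). Its second probe set, shared with C1rb, is among the dimmest of the array. It read 3.81, 3.32 and 3.21 in USP18ko, against 2.76, 2.83 and 2.81 in WT, a difference of 0.65 (SE 0.14, adjusted p = 0.0465). That call was lost without any 1 of 10 of the 12 arrays, the exceptions being USP18ko replicate 3 and IFNARko replicate 1, with differences of 0.47 to 0.77 over all 12 omissions. Neither probe set overlapped between the groups.

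C1qa and C1qb encode chains of C1q, the recognition molecule of the classical pathway, and they were the members with the widest spread among arrays. C1qa read 9.44, 10.19 and 9.64 in USP18ko, against 6.94, 8.85 and 8.10 in WT. The WT values differed by 1.91 among themselves, more than the mean difference of 1.79 between the groups (SE 0.37, adjusted p = 0.0429). The C1qa call was lost without any 1 of 10 arrays (all but WT replicate 2 and IFNARko replicate 1), and the difference ranged from 1.28 without WT replicate 1 to 2.23 without WT replicate 2. The brightest C1qb probe set (1417063_at) read 9.33, 10.19 and 9.57 in USP18ko, against 7.31, 9.0 and 8.13 in WT, a difference of 1.55 (SE 0.37, adjusted p = 0.117). The other C1qb probe sets (both with the x suffix that marks possible cross-hybridisation) differed by 1.71 (adjusted p = 0.107) and 1.32 (adjusted p = 0.0958). None of the 3 C1qb probe sets was called, although each passed without WT replicate 2 (1.97, 2.22 and 1.62, adjusted p = 0.0104, 0.00462 and 0.0205). C1qc, the gene of the third chain, which lies between C1qb and C1qa on chromosome 4, behaved likewise at 1.60 (SE 0.40, adjusted p = 0.161).

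C3ar1, the receptor of the C3a fragment, is carried by microglia and other myeloid cells. Its brighter probe set (1419482_at) read 6.73, 7.05 and 7.07 in USP18ko, against 5.35, 5.53 and 5.31 in WT, and rose by 1.55 (SE 0.15, adjusted p = 9.58e-05). Its dimmer probe set read 5.71, 5.89 and 5.44 in USP18ko, against 4.79, 4.74 and 4.52 in WT, and rose by 0.99 (SE 0.12, adjusted p = 9.40e-04). The probe sets agree in direction and differ in size.

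Serping1 encodes the C1 inhibitor, which blocks C1r and C1s. It read 8.12, 8.44 and 8.49 in USP18ko, against 7.22, 7.61 and 7.33 in WT. It rose by 0.96 (SE 0.13, adjusted p = 0.00126). A rise was thus measured in genes of the proteases C1r and C2 and in that of an inhibitor of C1r.

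The double knockout was then compared with USP18ko, for loss of the receptor gene on the Usp18-deficient background. Of the 12 complement probe sets, 11 were called lower in the double knockout and 0 higher, beside 1.16% and 0.0309% of all probe sets. All 12 were lower in every double knockout array than in every USP18ko array, which held for 7.12% of all probe sets. By gene, 8 of 8 fell. The median difference was -1.66 (range -2.37 to -0.45), against 0.01 over all probe sets. This comparison shares the USP18ko arrays with the one before, so both move with those 3 arrays.

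C4 read 6.42, 6.50 and 6.57 in the double knockout, against the USP18ko values above, and fell by 2.37 on the log2 scale (SE 0.14, adjusted p = 9.13e-07). C3ar1 read 4.99, 5.0 and 4.75 in the double knockout and fell by 2.04 (SE 0.15, adjusted p = 6.95e-06). C2 read 5.36, 5.49 and 5.33 there and fell by 1.94 (SE 0.20, adjusted p = 1.60e-04). The double knockout arrays of these genes lay close together.

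Cfb read 4.87, 5.03 and 5.15 in the double knockout and fell by 1.42 (SE 0.17, adjusted p = 5.20e-04). Serping1 read 7.46, 7.42 and 7.46 there and fell by 0.90 (SE 0.13, adjusted p = 0.00179). C1ra read 4.34, 4.35 and 4.41 and fell by 0.96 (SE 0.16, adjusted p = 0.00696). For these protease and inhibitor genes no double knockout array reached the lowest USP18ko array. The probe set shared by C1ra and C1rb, at 3.04, 2.96 and 2.98, was the one not called (-0.45, adjusted p = 0.305).

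C1qa read 7.75, 7.90 and 7.88 in the double knockout and fell by 1.91 (SE 0.37, adjusted p = 0.0230). C1qb read 7.89, 7.81 and 7.92 and fell by 1.82 (SE 0.37, adjusted p = 0.0328), and its other probe sets gave -1.89 and -1.50 (adjusted p = 0.0450 and 0.0332). C1q signals were thus tight in the double knockout, in contrast to WT, but their calls rested on few arrays. Leaving out USP18ko replicate 2 or 3 or any double knockout replicate ended all 4 C1q calls and left 7 of the 12 probe sets called. Same-numbered arrays of these 2 genotypes deviated weakly together, and with the replicate number as a block 1 of the C1qb calls was lost (-1.89, adjusted p = 0.0514), which left 10 of 12. Xist was high in all double knockout and low in all USP18ko arrays, so genotype and this signal cannot be told apart in the comparison. Eif2s3y, however, read 7.16 in double knockout replicate 2, close to the 7.26 of USP18ko replicate 1. That double knockout array also read 10.34 for Xist, so both signals were high in it. The Eif2s3y covariate therefore does not stand for the Xist difference. With the Eif2s3y level of the array as a covariate 6 of the 12 remained called, and C1qa (-1.26, adjusted p = 0.336), C1qb (-1.35, adjusted p = 0.524) and C1ra (-0.78, adjusted p = 0.144) did not pass.

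**Figure D2:**
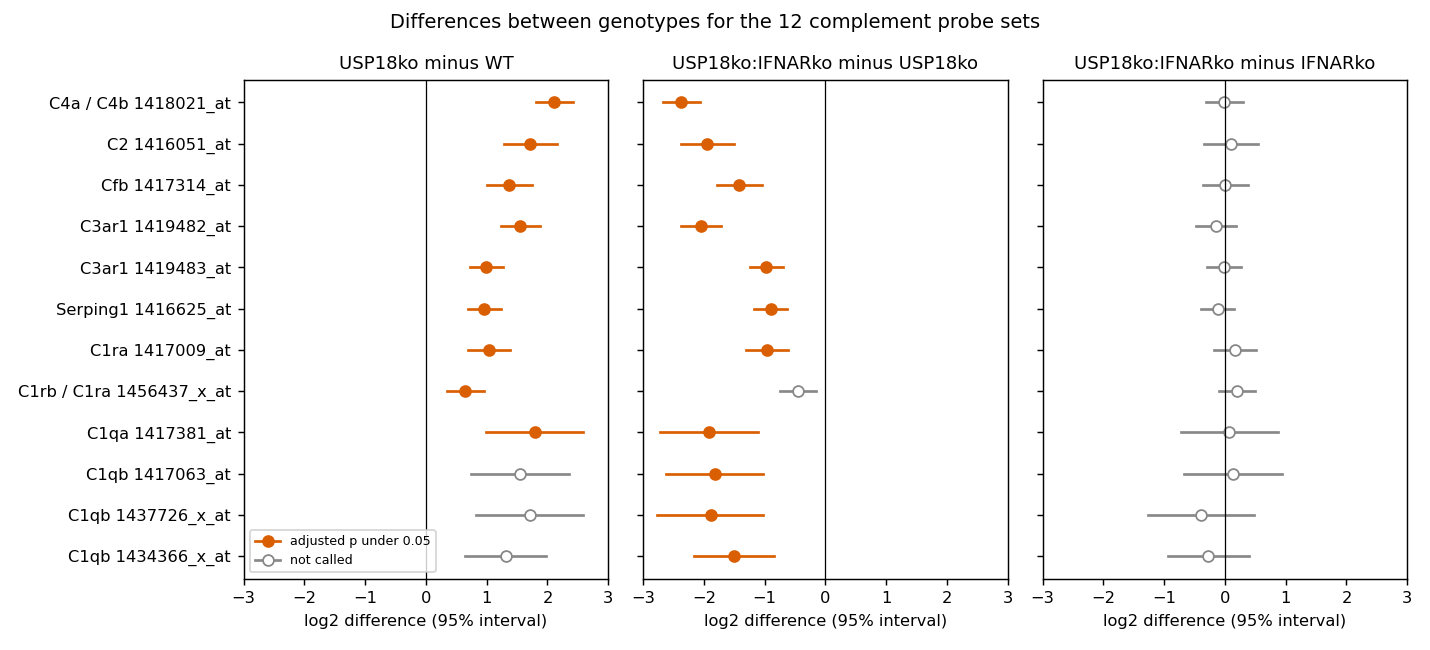
Log2 differences with 95% intervals for the 12 complement probe sets in the comparisons of USP18ko with WT, of the double knockout with USP18ko and of the double knockout with IFNARko. Filled orange points passed an adjusted p of 0.05. All points lie above 0 in the first panel and below 0 in the second, and every interval in the third panel includes 0.

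The double knockout was compared with IFNARko for the effect of Usp18 loss without the receptor gene. Xist was high in all double knockout and low in all IFNARko arrays, so genotype and this signal cannot be told apart here either. IFNARko includes replicate 1, the array that stood apart by its actin difference. No complement probe set was called, beside 0% of all probe sets, and 0 of 12 had an unadjusted p under 0.05, beside 8.35% of all probe sets. The differences ran from -0.40 to 0.20 with a median of 0.00. For C4 the double knockout values above stood beside 6.64, 6.34 and 6.52 in IFNARko. The C4 difference was -0.01 with a 95% interval of -0.31 to 0.30, which does not reach the 2.11 measured with the receptor gene present. For C2 the interval was -0.34 to 0.54, beside 5.52, 5.02 and 5.34 in IFNARko, and for Cfb -0.36 to 0.38, beside 5.33, 4.89 and 4.80. The arrays of these 3 genes overlapped between both genotypes. For C3ar1, at 5.32, 5.08 and 4.77 in IFNARko, it was -0.47 to 0.19. Serping1 read 7.66, 7.55 and 7.50 in IFNARko, above every double knockout array, with an interval of -0.40 to 0.15. The probe set shared by C1ra and C1rb went the other way. Every double knockout array read above IFNARko there, with an interval of -0.10 to 0.49. The share of all probe sets separated in this way was not computed. C1ra read 4.44, 4.17 and 4.0 in IFNARko, with an interval of -0.18 to 0.51. The C1q intervals are wider. C1qa, at 7.52, 7.78 and 8.02 in IFNARko, had -0.73 to 0.87. For C1qb, at 7.19, 7.95 and 8.08, it was -0.67 to 0.94. Differences of either sign inside these intervals remain compatible with the data.

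The difference of these differences was tested as the interaction, that is, the effect of Usp18 loss without the receptor gene minus that with it. All 12 estimates were negative, with a median of -1.5 against 0.01 over all probe sets. Of the 12, 6 were called, beside 0.685% of all probe sets called lower, and 12 had an unadjusted p under 0.05, beside 4.11%. C4 had an interaction of -2.12 (SE 0.20, adjusted p = 1.20e-04), and the brighter C3ar1 probe set -1.70 (SE 0.21, adjusted p = 0.00160). C2 (-1.62, adjusted p = 0.0197), Cfb (-1.36, adjusted p = 0.0191), Serping1 (-1.09, adjusted p = 0.0117) and the dimmer C3ar1 probe set (-1.01, adjusted p = 0.0181) passed as well. C1ra (-0.88, adjusted p = 0.207), C1qa (-1.72, adjusted p = 0.499) and C1qb (-1.42, adjusted p = 0.898) did not pass. The count was 2 without WT replicate 3, 3 without double knockout replicate 2 and 1, C4 alone, with the Eif2s3y covariate. C2, Cfb and the dimmer C3ar1 probe set each lost the call without 5 or 6 of the single arrays, and Serping1 without WT replicate 3, whereas C4 and the brighter C3ar1 probe set kept it without any one of the 12.

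Loss of both genes, and of the receptor gene alone, was compared with WT, 2 comparisons that share the WT arrays. In neither did limma call a complement probe set, beside 0% of all probe sets for the double knockout and 0.0177% for IFNARko. At an unadjusted p under 0.05 there was 1 of 12 in each, beside 4.2% and 9.17% of all probe sets. C3ar1 had the smallest unadjusted p in both: the brighter probe set, at the values above in the double knockout and in IFNARko, against 5.35, 5.53 and 5.31 in WT, differed by -0.48 in the double knockout (SE 0.15, adjusted p = 0.996) and by -0.34 in IFNARko (SE 0.15, adjusted p = 0.541). The dimmer C3ar1 probe set did not share this, at 0.03 and 0.04. C4 differed by -0.25 and -0.24 in the double knockout and IFNARko, with 95% intervals of -0.55 to 0.05 and -0.55 to 0.06. C2 differed by -0.22 and -0.32, Cfb by -0.05 and -0.06 and Serping1 by 0.06 and 0.18. Ordered by genotype mean, USP18ko was the highest for each of the 12 probe sets, and the other 3 genotypes did not differ beyond the test's threshold.

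The members differed in their spread within genotypes. The pooled SD within genotypes was 0.53 for C1qa and 0.44 to 0.59 for the C1qb probe sets, against 0.15 to 0.28 for the other 8 probe sets. After each genotype mean was subtracted, C1qa and C1qb correlated at r = 0.95 over the 12 arrays, and C2, C4 and Cfb with each other at 0.71 to 0.75, whereas C1qa correlated with C2 at -0.16, with Cfb at -0.04 and with C4 at 0.35. C1ra and Serping1 correlated at 0.93 with each other and also with both C1qa and C4, Serping1 at 0.66 with C1qa and 0.81 with C4, and C1ra at 0.59 with C1qa and 0.70 with C4. The dim probe set shared by C1ra and C1rb ran from -0.62 (with C2) to 0.24 (with the dimmer C3ar1 probe set), and the dimmer C3ar1 probe set from -0.39 (with C2) to 0.25 (with a C1qb probe set). These are descriptions over 12 arrays with 8 residual degrees of freedom, and arrays share RNA quality and cell content. The genotypes also weighed unequally in these correlations. The SD of C1qa was 0.96 among WT arrays, with 0.08 to 0.39 elsewhere. For C2 the largest SD was that of USP18ko, at 0.48, with 0.08 to 0.25 elsewhere. Whether the members varied together inside a single genotype was not tested.

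Among the WT arrays the C1q spread ran with that of microglia markers. The mean log2 signal of 10 measured microglia markers was 7.26 to 7.88 in USP18ko and 6.50 to 7.62 in WT, with 6.50 in WT replicate 1, 7.62 in replicate 2 and 7.17 in replicate 3, the same order as C1qa and C1qb. It was 6.90 to 6.95 in the double knockout and 6.87 to 7.20 in IFNARko. The USP18ko arrays also had the same order for the marker mean, C1qa and C1qb. In IFNARko, replicate 1 had the highest marker mean, at 7.20, but the lowest C1qa and C1qb, at 7.52 and 7.19. The double knockout shared the order of the marker mean for C1qa and not for C1qb. Within genotypes this mean correlated with C1qa at r = 0.89, with C1qb at 0.75, with C1ra and Serping1 at 0.86 each, with C4 at 0.59, with C3ar1 at 0.48, with Cfb at 0.35 and with C2 at 0.14. Of the 10 markers 1 was called in USP18ko against WT, Aif1, at 1.93 (SE 0.29, adjusted p = 0.00447), and the list's median difference was 0.38, with Aif1 included in the mean and the median. The markers did not move as one: P2ry12 differed by -0.35, Gpr34 by -0.28, Fcrls by 0.00 and Olfml3 by 0.11. The rest lay between 0.35 (Cx3cr1) and 1.26 (Tyrobp). In the double knockout against USP18ko Aif1 was again the 1 marker called, and it fell by 2.31 (adjusted p = 8.95e-04), with a list median of -0.57. The part of microglial content in the complement differences was not tested. WT replicate 2 also had the highest myelin marker mean, and the part of tissue content in the C1q spread was not tested.

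**Figure D3:**
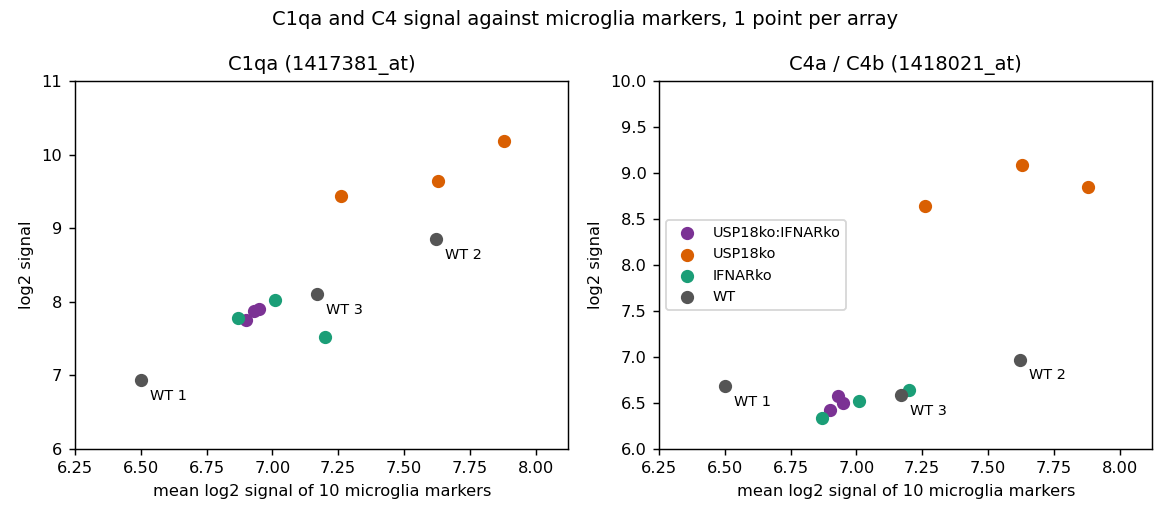
Log2 signal of C1qa (left) and of the C4 probe set (right) against the mean log2 signal of 10 microglia markers, 1 point per array, coloured by genotype. The C1qa points of WT replicates 1, 3 and 2 rise with the marker mean. The 3 USP18ko arrays read at least 8.64 for C4, and all other arrays at most 6.97.

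Markers of other cell types that could carry complement transcripts moved in part. Of 8 perivascular macrophage markers 1 was called higher in USP18ko, Ms4a7 (1.74, adjusted p = 2.81e-05), with a list median of 0.38 and list means of 6.27 to 6.61 in USP18ko and 5.60 to 6.08 in WT. Of 10 monocyte and neutrophil markers 1 was called higher, Plac8 (3.35, adjusted p = 1.08e-04), with a list median of 0.92 and list means of 5.46 to 5.98 in USP18ko and 4.55 to 4.60 in WT. None of 11 lymphocyte, 10 astrocyte, 8 endothelial or 6 liver plasma protein markers was called in that comparison, with list medians of 0.03, 0.04, 0.03 and 0.02. In the double knockout against USP18ko Ms4a7 fell by 2.06 (adjusted p = 5.04e-06), Plac8 fell by 3.81 (adjusted p = 2.88e-05), and the probe set shared by Ly6c2 and Ly6c1 fell by 1.35 (adjusted p = 0.0441). The list medians were -0.42 for perivascular macrophages and -0.53 for monocytes and neutrophils, with list means of 5.71 to 5.98 and 4.46 to 5.09 in the double knockout. The probe set shared by Ly6c2 and Ly6c1 cannot tell these genes apart. It averaged 7.62 in WT, far above the list means of 4.55 to 4.60 there. Its fall was therefore not read as one in monocytes. The part of macrophages and monocytes in the complement differences was not tested.

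The rest of the complement system was read from lists of 50 further genes by role, of which 36 had a probe set. In USP18ko against WT 2 of the 36 were called higher and 0 lower, with a median difference of 0.03, and in the double knockout against USP18ko 2 were called lower and 0 higher, with a median of -0.04. Both were chains of complement receptor 3, which binds C3 fragments on opsonised targets. Itgb2 read 5.43, 5.86 and 6.07 in USP18ko, against 4.58, 4.69 and 4.69 in WT, and rose by 1.14 (SE 0.14, adjusted p = 9.44e-04). Itgam read 4.44, 5.03 and 4.68 in USP18ko, against 4.09, 3.81 and 3.86 in WT, and rose by 0.80 (SE 0.14, adjusted p = 0.0153), a call lost without WT replicate 2 or 3 or USP18ko replicate 2 or 3 (0.64 to 0.82). In the double knockout against USP18ko Itgb2 fell by 1.39 (adjusted p = 1.42e-04) and Itgam by 0.72 (adjusted p = 0.0274, lost with the replicate block at an adjusted p of 0.0776, and without WT replicate 3, USP18ko replicate 2 or 3 or any double knockout replicate), and the interaction was called for Itgb2 (-1.21, adjusted p = 0.0140, lost without double knockout replicate 1 and with the Eif2s3y covariate).

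Other receptors and regulators gave no call. Among receptors C5ar1, the C5a receptor, differed by 0.27 (adjusted p = 0.625) and Cd93 by 0.18 (adjusted p = 1.00) in USP18ko against WT. In the double knockout against USP18ko C5ar1 differed by -0.40 (adjusted p = 0.0611). It was called there in some settings, such as without IFNARko replicate 1 (adjusted p = 0.0250). Of 14 further regulators 0 were called in USP18ko against WT. Among them were Cd59a at -0.42, clusterin, Clu, at 0.07, vitronectin, Vtn, at -0.16, and Cr1l, the rodent membrane regulator of C3 and C4 cleavage, at 0.20. None of 6 measured terminal pathway genes was called, including Hc, which encodes C5 (-0.20), and C9, the pore-forming component (0.01), and all 6 averaged between 4.15 and 5.35. Properdin, Cfp, the stabiliser of the alternative enzyme, differed by 0.35 (adjusted p = 1.00), and the lectin pathway proteases Masp1 and Masp2 by 0.04 and 0.06. Fcna, another lectin pathway gene, differed by 0.61 in USP18ko against WT (adjusted p = 0.826). It differed by -0.70 in the double knockout against USP18ko (adjusted p = 0.423). In the double knockout against IFNARko 0 of the 36 were called.

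**Figure D4:**
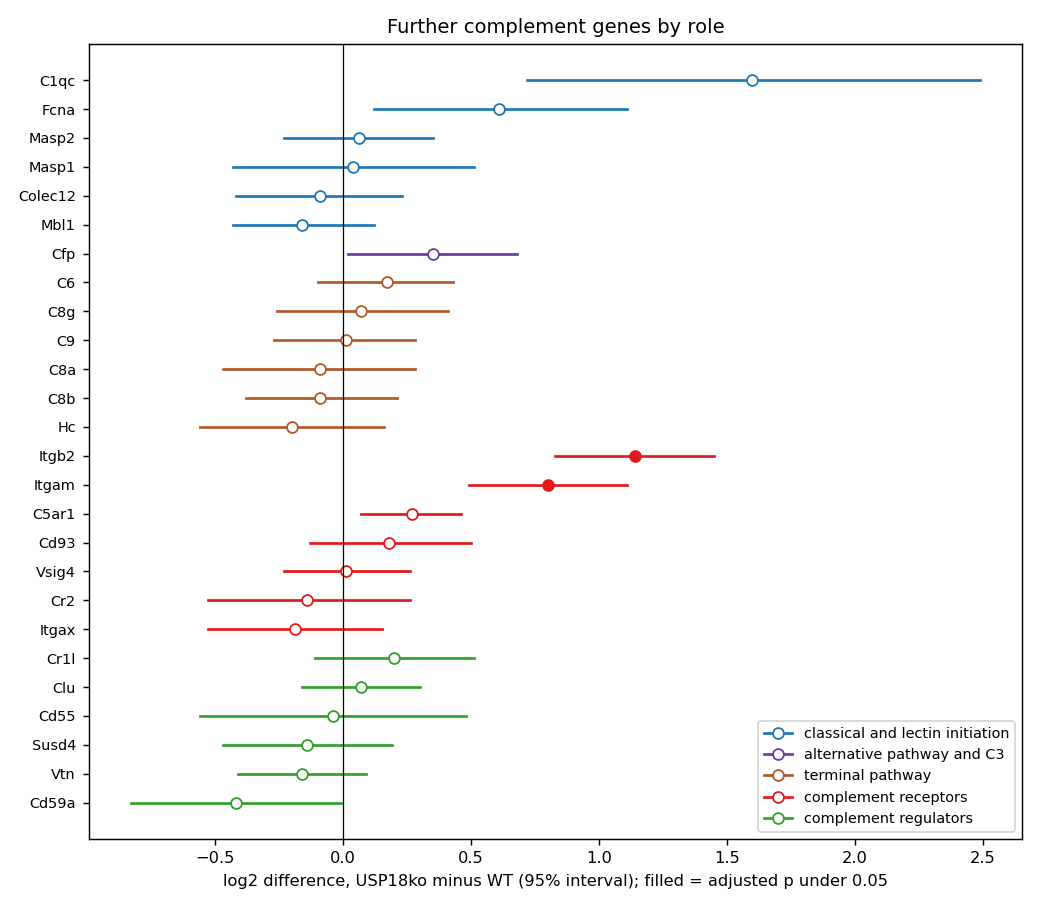
Log2 differences of USP18ko minus WT with 95% intervals for named further complement genes, coloured by role. Filled points, Itgb2 at 1.14 and Itgam at 0.80, passed an adjusted p of 0.05, and open points did not.

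The probe sets of other genes whose 12-array pattern was most like each member differed by member. For C1qa they were C1qc (r = 0.986), C1qb (0.985) and Fcer1g (0.974), the shared signalling chain of Fc receptors. For C4 the closest 3 were probe sets of class I histocompatibility genes, H2-K1 (0.998 and 0.996) and one shared by H2-K1 and H2-D1 (0.995). For C2 they were Epsti1 (0.983), the chemokine gene Cxcl11 (0.981) and Gbp2b (0.981), and for Cfb Epsti1 (0.990), Slfn2 (0.989) and Cxcl11 (0.988). For C3ar1 they included the transcription factor gene Irf8 and Ms4a7 (0.982 each), for Serping1 the leukocyte actin-bundling gene Lcp1 (0.986), and for C1ra Pld4 (0.971) and B2m (0.969). These correlations describe the separation of USP18ko from the other genotypes as much as any likeness between arrays of 1 genotype.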

How the data were processed

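RNA of 12 whole-brain samples was prepared on columns and biotin-labelled by one-cycle 3' amplification, per the labels' protocols. The authors deposited log2 signals, made with the R package affy, per the submitters' processing notes. The sources used here do not give the package version, background correction or normalization. Base 2 was inferred from the values. Of 22690 probe sets 64 controls were left out. The platform annotation may be outdated. It gave 1 gene for 20380 probe sets, several for 691 and none for 1555.

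All 22626 probe sets were fitted in limma 3.58.1 (R 4.3.3) over 12 arrays by genotype alone (8 residual and 3.79 prior degrees of freedom), two-sided, with Benjamini-Hochberg adjustment over all probe sets of each of 6 comparisons and calls at an adjusted p under 0.05. An exact test of 3 against 3 arrays cannot go below 0.1. The probe set was the unit, and a gene was counted by its brightest one. The fit was tested on simulated data. The members and lists were chosen with earlier results of these data known. Named were all members, called genes of the complement lists and the brightest others, called and the 2 brightest markers per cell type, the 3 closest patterns per member and the array checks. Further microglia markers were named after their values were seen. No arrays held identical values. Deviations of same-numbered replicates correlated at -0.261 to 0.256, over 0.1 in 6 of 18 pairs. Only for the double knockout and USP18ko did all 3 pairs exceed 0.1 (0.101, 0.256 and 0.146), so for this comparison the numbers were taken as pairs, from the data and not the labels, and changed calls are given with the block.

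Alternatives were 1 value per gene (brightest or mean), no dim probe sets (below the 40th percentile), quantile normalization, median centring, a trended and robust variance, only the groups compared, a replicate block, an Eif2s3y covariate, each array left out, and IFNARko replicate 1 and WT replicate 1 left out together. Gene-by-gene array weights were added after seeing the data.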

Additional observations from a re-analysis of the deposited data

Results flagged for a closer look

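The effect of Usp18 loss differed between mice without and with the receptor gene, by the interaction test, for 6 of the 12 complement probe sets. The interaction was -2.12 for C4, -1.70 and -1.01 for the C3ar1 probe sets, -1.62 for C2, -1.36 for Cfb and -1.09 for Serping1. Each of these differences was larger with the receptor gene present. Xist was high in all 3 double knockout arrays and in WT replicate 1, and low in the other 8, and Eif2s3y was low in WT replicate 1 and double knockout replicates 1 and 3 only. With Eif2s3y as a covariate the interaction was called for C4 alone. Groups of 3 arrays were too small to test a single array as an outlier.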

How the results depend on the processing

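No called complement difference changed sign in any setting. Of the comparisons with WT or IFNARko, 0 complement probe sets were called in the double knockout against IFNARko in all settings, and 1 each in the double knockout and in IFNARko against WT with gene-by-gene array weights, C3ar1 in both (-0.41 and -0.44). Differences that were not called changed sign in 27, 16 and 21 of 260 values in those 3 comparisons. In USP18ko against WT the 9 called probe sets became 2 without dim probe sets, where 6 were tested, and 7 to 11 when 1 array was left out. With only these groups fitted C1qa (adjusted p = 0.227), the C1ra and C1rb probe set (adjusted p = 0.241) and Itgam (adjusted p = 0.1) lost the call. With the Eif2s3y covariate the C1ra and C1rb probe set lost it (0.66, adjusted p = 0.0942), and a C1qb probe set gained it (1.40, adjusted p = 0.0231). In the double knockout against USP18ko the 11 became 7 with the brightest probe set or the mean per gene, where 7 genes were tested, 2 without dim probe sets, 6 with the Eif2s3y covariate and 7 to 11 when 1 array was left out. The 6 interactions became 2 without dim probe sets, 11 with gene-by-gene array weights, 1 with the Eif2s3y covariate and 2 to 7 when 1 array was left out. Beyond the smaller numbers tested the cause was not tested. With a replicate block 9, 10 and 5 probe sets were called in these 3 comparisons. The Cfb interaction was lost (-1.36, adjusted p = 0.0642), as was the C1ra and C1rb probe set in USP18ko against WT (0.65, adjusted p = 0.0657), where C1qb was gained (1.55, adjusted p = 0.0261) and Itgam lost (0.80, adjusted p = 0.0507). In the double knockout against USP18ko C1qc was gained (-1.65, adjusted p = 0.0415). Beside these and the calls given with the block above, it changed no other call of a complement gene. Without both arrays that stand apart 9, 11 and 6 were called. Over all probe sets the 221, 270 and 159 calls ranged from 63 to 523, 75 to 598 and 47 to 357, and the 0, 0 and 4 of the other comparisons reached 241, 2306 and 2884. Default array weights did not converge, with 1 WT array at a weight of 65.9, and were not used. Low levels could not be set against background.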
